A study of Homo sapiens with 6 samples.

Results

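The 10 genes described here were read by symbol from a table of 23290 genes: the receptor tyrosine kinase genes AXL, TYRO3, MERTK, PDGFRA, PDGFRB, MET, INSR, IGF1R and DDR2, and GAS6, which encodes a ligand. They were chosen by name, with earlier results of these data known. All 10 were found, and the 8 that averaged 1 FPKM or more over all 6 libraries were tested. FPKM is the number of sequenced fragments scaled by transcript length and by the size of the library, so levels of different genes can be set side by side. The cells were U87, an established human glioblastoma line grown in medium with 10% serum. In the shC8 group (3 libraries) they carried a retroviral vector that silences Caspase-8, the initiator protease of death receptor signalling. In the shCTR group (3 libraries) they carried a retroviral scramble vector, so all 6 cultures had been infected. The libraries of a group are described as biological replicates by the submitters, with no word on how their cultures were kept apart. The p-values therefore reflect only how these libraries vary, which may be technical. How many hairpins were used, and whether infected cells were a pool or a clone, is not given in the sources used here.

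Receptor tyrosine kinases are membrane proteins that bind a ligand outside the cell. Many of them pair on binding, phosphorylate each other's tails, and recruit adaptors that feed the RAS and PI3K pathways. AXL, TYRO3 and MERTK form the TAM family, whose ligand GAS6 bridges the receptors to phosphatidylserine on membranes. PDGFRA and PDGFRB bind platelet-derived growth factors, MET binds hepatocyte growth factor, INSR and IGF1R bind insulin and insulin-like growth factors, and DDR2 is a receptor for fibrillar collagen. In glioblastoma, PDGFRA is known as an amplified gene of one tumour class, and AXL and MET are known for invasion and resistance to inhibitors.

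CASP8, the targeted gene, was at 4.39, 4.46 and 4.44 FPKM in shC8, against 15.1, 14.9 and 13.4 FPKM in shCTR, so 30.6% of the control level was left. Log2 changes are shC8 minus shCTR on the log2(FPKM + 1) scale, from a limma fit over all tested genes. That of CASP8 was -1.51 (SE 0.0705, limma adjusted p = 0.000206), while permuting the libraries exactly (two-sided) gave p = 0.1, the lowest that 3 against 3 can give. Of 11598 genes tested across the table, 12.1% were called at an adjusted p under 0.05, 7.14% higher and 4.94% lower in shC8. Median-of-ratios scaling of the columns turned that split round, to 621 higher and 820 lower calls, where the fit reported here had 828 higher and 573 lower. Of the markers listed for the line, VIM averaged 3785 FPKM in shC8 and 4318 FPKM in shCTR, and did not pass. CD44 was lower, at 269 FPKM in shC8 and 366 FPKM in shCTR (limma adjusted p = 0.0131), and NES was higher, at 11.1 FPKM in shC8 and 6.95 FPKM in shCTR (limma adjusted p = 0.0293). The glial genes GFAP, S100B, SOX2 and OLIG2 averaged under 1 FPKM in both groups. Of 3 immune markers, PTPRC and CD3E averaged under 0.05 FPKM in both groups and CD68 was at 143 FPKM in shC8 and 153 FPKM in shCTR. The 3 endothelial markers together summed to between 0.109 and 0.161 FPKM in shC8 and between 0.161 and 0.26 FPKM in shCTR, and the 3 epithelial markers to between 0.866 and 1.01 FPKM in shC8 and between 0.82 and 1.43 FPKM in shCTR. The pericyte markers RGS5, CSPG4 and MCAM summed to between 48.9 and 53.3 FPKM in shC8 and between 44.2 and 49.7 FPKM in shCTR. In these bulk libraries, fewer cells that express a gene and less RNA per cell cannot be told apart.

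AXL, PDGFRB and INSR were higher in shC8, and none of the 8 tested genes was called lower. That is 3 of 8, beside 7.14% of all tested genes called higher. Since the genes were chosen with earlier results of these data known, such shares describe them and test no excess. With the replicate number as a block DDR2 was called as well, which makes 4 of 8, beside 16.1% of all tested genes called higher in that fit. The same 4 genes were higher at an unadjusted limma p under 0.05, beside 18.3% of all tested genes. The 2 groups did not overlap for 4 of the 8 genes, all with shC8 higher, beside 21.7% of all tested genes that were so and 13.1% that did not overlap with shC8 lower. The median log2 change of the 8 genes was 0.16, and that of all tested genes was 0.04. MET, GAS6, IGF1R and TYRO3 overlapped between the groups, and so did PDGFRA and MERTK, which averaged under 1 FPKM and were not tested.

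**Figure D1:**
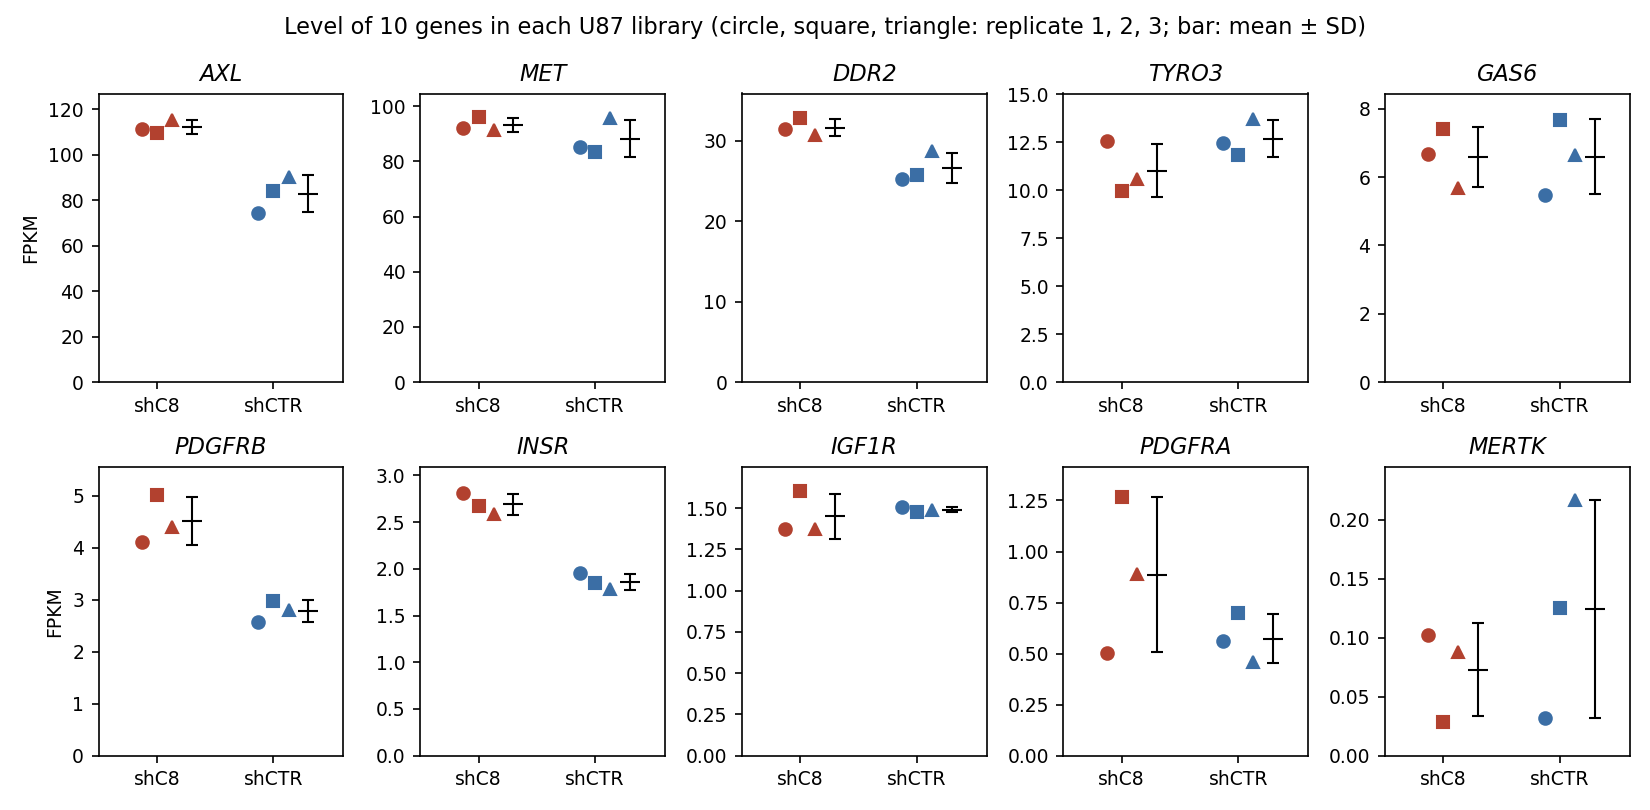
FPKM (vertical axes, each from 0) of the 10 genes in the 3 shC8 libraries (left in each panel) and the 3 shCTR libraries (right), ordered by mean level, with the mean and SD beside the points. AXL, DDR2, PDGFRB and INSR have every shC8 point above every shCTR point, and the other 6 genes overlap.

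AXL (ENSG00000167601, plus strand of chromosome 19, 41219203 to 41261766, GRCh38) was the most abundant of the receptor kinases over all libraries. It stood at 111, 110 and 116 FPKM in shC8 1, 2 and 3, against 74.6, 84.0 and 90.4 FPKM in shCTR 1, 2 and 3. Every shC8 library lay above every shCTR library, and the shC8 values lay closer together. The means were 112 ± 3.04 FPKM in shC8 and 83.0 ± 7.95 FPKM in shCTR (SD, n = 3 each), a ratio of 1.35. The log2 change was 0.43 (SE 0.0806, 95% interval 0.25 to 0.62, limma adjusted p = 0.0169). The call ended without shC8 2 (limma adjusted p = 0.0515), shC8 3 (adjusted p = 0.0714) or shCTR 2 (adjusted p = 0.0545), with changes between 0.36 and 0.50 over the 6 fits that left out a library.

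PDGFRB (ENSG00000113721, minus strand of chromosome 5, 150113837 to 150155872), the receptor for PDGF-BB that marks pericytes in tissue, was at a low level and had the largest change of the 8 tested genes. It stood at 4.12, 5.02 and 4.41 FPKM in shC8, against 2.56, 2.98 and 2.80 FPKM in shCTR. The groups did not overlap, and the lowest shC8 library was well above the highest shCTR library. Means were 4.51 ± 0.462 FPKM in shC8 and 2.78 ± 0.21 FPKM in shCTR (SD, n = 3 each), a ratio of 1.62 and a log2 change of 0.54 (SE 0.0925, 95% interval 0.33 to 0.76, limma adjusted p = 0.0132). Without shC8 3 the limma adjusted p was 0.0502, and the call held in the other 5 fits that left out a library. Of the pericyte markers, CSPG4 was also higher, at 9.80, 13.01 and 10.99 FPKM in shC8, against 5.90, 7.39 and 6.98 FPKM in shCTR (limma log2 change 0.66, adjusted p = 0.0149), while RGS5 and MCAM did not pass. The part of these markers in the PDGFRB result was not tested. PDGFRA (ENSG00000134853, chromosome 4, 54229097 to 54298247), the receptor that also binds PDGF-AA, was listed at 0.503, 1.27 and 0.892 FPKM in shC8, against 0.563, 0.697 and 0.46 FPKM in shCTR. Here shC8 1 lay among the controls. A read-through gene on the same strand, AC058822.1, overlaps it in the annotation. With no filter on low values its log2 change was 0.24 (limma adjusted p = 0.413).

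INSR (ENSG00000171105, minus strand of chromosome 19, 7112255 to 7294034), the insulin receptor gene, was at 2.81, 2.67 and 2.59 FPKM in shC8, against 1.95, 1.85 and 1.78 FPKM in shCTR. Replicates of a group lay within 0.3 FPKM of each other, and the groups did not overlap. The means were 2.69 ± 0.11 FPKM in shC8 and 1.86 ± 0.0849 FPKM in shCTR (SD, n = 3 each), a ratio of 1.45, and the log2 change was 0.37 (SE 0.0811, 95% interval 0.18 to 0.56, limma adjusted p = 0.03). This call was lost in each of the 6 fits that left out a library (limma adjusted p between 0.056 and 0.0882) and under quantile normalization (limma adjusted p = 0.0603). IGF1R (ENSG00000140443, chromosome 15, 98648539 to 98964530), the receptor for insulin-like growth factor 1, was not called: it was at 1.37, 1.61 and 1.37 FPKM in shC8, against 1.505, 1.48 and 1.49 FPKM in shCTR. Its log2 change was -0.03 (SE 0.0902, 95% interval -0.24 to 0.19, limma adjusted p = 0.885).

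Because AXL, PDGFRB and INSR were the called genes, the bases before their transcription starts are shown. Each window comes from RefSeq (GRCh38.p14) and ends at the RefSeq start or, for AXL and PDGFRB, at the start of the GENCODE gene model where that comes first. For INSR the GENCODE gene model starts farther downstream, at 7294034, so the annotations differ on where its window should end. It is written 5′ to 3′ on the strand of the gene, and capitals mark GC boxes, the letters GGGCGG on either strand, a known binding word of SP1-type factors. The windows are chr19:41218973-41219202 (plus strand, 63.9% G or C), chr5:150155873-150156095 (minus strand, 58.3%) and chr19:7294415-7294664 (minus strand, 78.4%).
AXL: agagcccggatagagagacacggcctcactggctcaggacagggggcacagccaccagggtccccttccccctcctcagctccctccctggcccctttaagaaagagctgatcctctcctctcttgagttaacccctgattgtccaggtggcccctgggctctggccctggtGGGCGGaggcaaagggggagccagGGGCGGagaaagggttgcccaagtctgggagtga
PDGFRB: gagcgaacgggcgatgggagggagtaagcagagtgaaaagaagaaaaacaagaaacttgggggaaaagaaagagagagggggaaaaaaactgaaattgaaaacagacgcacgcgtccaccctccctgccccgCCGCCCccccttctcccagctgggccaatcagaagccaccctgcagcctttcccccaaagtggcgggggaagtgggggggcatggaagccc
INSR: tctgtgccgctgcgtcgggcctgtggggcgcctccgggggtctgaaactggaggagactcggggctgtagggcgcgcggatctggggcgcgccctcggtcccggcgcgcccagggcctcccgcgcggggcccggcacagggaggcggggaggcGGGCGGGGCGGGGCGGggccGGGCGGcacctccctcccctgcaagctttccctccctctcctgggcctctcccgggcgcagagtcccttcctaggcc

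The AXL window holds 2 GC boxes, 78 and 54 bases before the RefSeq start, PDGFRB holds 1, at 118 bases, and INSR holds 4, of which the 3 farthest from the start overlap. In the 250 bases before RefSeq starts, a GC box occurred in 9 of 15 windows of the 10 genes (9 genes), beside 42.6% of all 35116 windows. The AP-1 letters TGANTCA occurred in 2 of the 15 windows, 1 of TYRO3 and 1 of PDGFRA, beside 6.57% of all windows. The TEAD letters GGAATG occurred in 1, an AXL window other than the one shown, beside 11.9% of all windows. The NF-kB motif was searched because the study's title names that factor, and 0 of the 15 windows held it, beside 9.96% of all windows. Both strands were searched. GC boxes were not limited to called genes: IGF1R and MET, which were not called, hold 2 each, and the 3 windows of DDR2 hold none of the 4 motifs.

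The other TAM receptors did not pass or could not be tested. TYRO3 (ENSG00000092445, chromosome 15, 41557675 to 41583586) was at 12.6, 9.94 and 10.6 FPKM in shC8, against 12.5, 11.8 and 13.7 FPKM in shCTR. In shC8, libraries 2 and 3 were below all controls, and shC8 1 lay among the controls. The log2 change was -0.19 (SE 0.0976, 95% interval -0.42 to 0.04, limma adjusted p = 0.24). A pseudogene, TYRO3P, was listed at no more than 0.204 FPKM in any library. MERTK (ENSG00000153208, chromosome 2, 111898479 to 112029561), the TAM receptor best known for uptake of dying cells by macrophages, was near 0 throughout: 0.102, 0.0282 and 0.0877 FPKM in shC8, against 0.0318, 0.126 and 0.217 FPKM in shCTR. The groups overlapped, and with no filter on low values the log2 change was -0.07 (limma adjusted p = 0.6).

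GAS6 (ENSG00000183087, minus strand of chromosome 13, 113820549 to 113864067), the shared TAM ligand, was at 6.69, 7.42 and 5.67 FPKM in shC8, against 5.47, 7.68 and 6.65 FPKM in shCTR. The groups overlapped, and the means were 6.59 ± 0.875 FPKM in shC8 and 6.60 ± 1.11 FPKM in shCTR (SD, n = 3 each). Its log2 change was 0.00 (SE 0.13, limma adjusted p = 0.995), negative under quantile normalization and median-of-ratios scaling, and its 95% interval ran from -0.30 to 0.31. Antisense genes overlap GAS6 (GAS6-AS1), AXL and IGF1R in the annotation. Whether fragments were counted by strand was not given in the sources used here, so their fragments cannot be told apart. PROS1, which encodes protein S, the ligand of TYRO3 and MERTK, was at 38.2, 38.5 and 31.1 FPKM in shC8, against 31.0, 30.9 and 29.7 FPKM in shCTR. Its log2 change was 0.22 (SE 0.0899, limma adjusted p = 0.148), and shC8 3 lay just above the controls.

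MET and AXL were the leading receptor kinases, and the order of their means differed between the groups. MET (ENSG00000105976, chromosome 7, 116672390 to 116798386), the hepatocyte growth factor receptor, was at 92.2, 96.1 and 91.4 FPKM in shC8, against 85.2, 83.5 and 95.8 FPKM in shCTR. It overlapped between the groups, with a log2 change of 0.08 (SE 0.0713, 95% interval -0.08 to 0.25, limma adjusted p = 0.48). In shC8 every AXL value exceeded every MET value, while in shCTR the 2 genes overlapped, with MET above AXL in shCTR 1 and 3. HGF, the ligand of MET, was at 29.1, 33.1 and 22.5 FPKM in shC8, against 15.1, 23.4 and 21.3 FPKM in shCTR. Its log2 change of 0.49 (SE 0.184, limma adjusted p = 0.127) did not pass, and the groups overlapped.

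DDR2 (ENSG00000162733, chromosome 1, 162631373 to 162787400), the receptor for fibrillar collagen, ranked 3 in level among the 10 genes. It stood at 31.4, 32.8 and 30.7 FPKM in shC8, against 25.3, 25.7 and 28.8 FPKM in shCTR. The groups did not overlap, and the ratio of means was 1.19. The log2 change was 0.24 (SE 0.0698, 95% interval 0.08 to 0.41), with a limma adjusted p of 0.0621. With the replicate number as a block the limma adjusted p was 0.0397.

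COL1A1 and COL1A2, whose chains form type I collagen, a ligand of DDR2, were also higher in shC8. COL1A2 was at 171, 320 and 284 FPKM in shC8, against 55.9, 107 and 97.3 FPKM in shCTR, a ratio of means of 2.99 and a log2 difference of 1.57 (limma, SE 0.296, adjusted p = 0.0176). COL1A1 was at 32.9, 69.5 and 67.9 FPKM in shC8, against 15.2, 20.7 and 20.1 FPKM in shCTR, a ratio of means of 3.04 and a log2 difference of 1.49 (limma, SE 0.276, adjusted p = 0.0168). For both genes shC8 1 was the lowest of its group and shCTR 1 the lowest of its group, and the groups did not overlap. Without shC8 2 or shC8 3 neither call held, and COL1A1 also lost its call without shCTR 1, with limma adjusted p between 0.057 and 0.0713. With no filter on low values both missed the threshold, with limma adjusted p of 0.0522 for COL1A1 and 0.0541 for COL1A2. Of the 13 ligand genes listed for these receptors 6 were tested, with a median log2 change of 0.35. Among the 6, 2 rose while 4 did not pass, beside 7.14% of all tested genes called higher. PDGFA was at 7.42 ± 0.342 FPKM in shC8 and 7.19 ± 0.632 FPKM in shCTR (SD, n = 3 each), with overlapping groups. PDGFC was at 52.7 ± 4.85 FPKM in shC8 and 45.02 ± 3.18 FPKM in shCTR (SD, n = 3 each), with a limma adjusted p of 0.133, or 0.0192 with the replicate block. INS and PDGFB were listed at 0 in every library, and IGF1, IGF2 and PDGFD averaged under 0.2 FPKM in both groups.

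**Figure D2:**
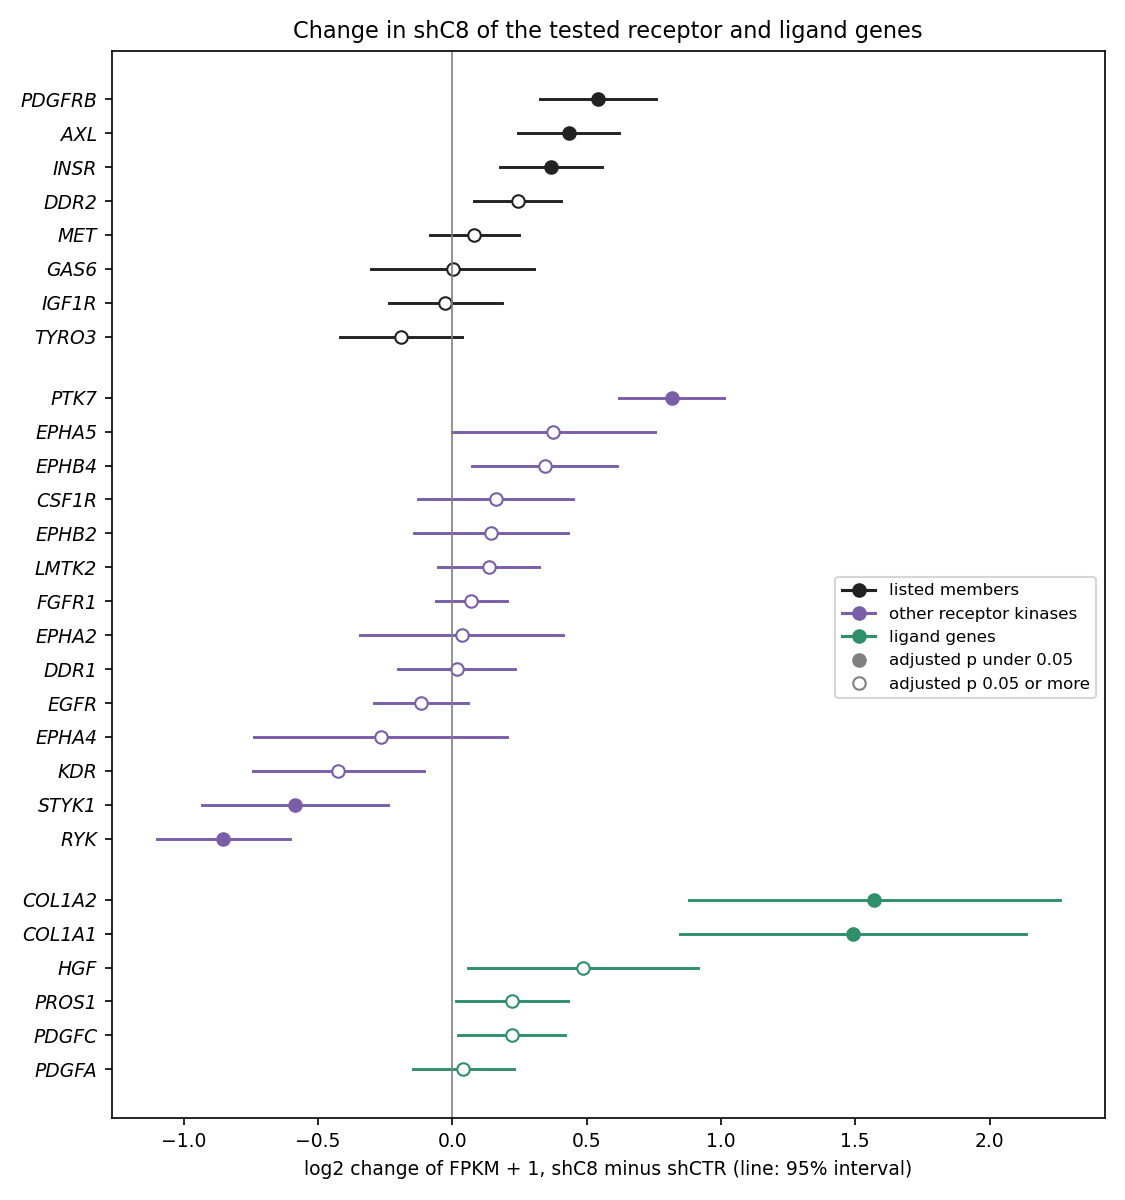
Log2 change of FPKM + 1, shC8 minus shCTR (horizontal axis, positive where shC8 is higher), with 95% intervals for the 8 tested members, 14 other tested receptor kinase genes and 6 tested ligand genes. Filled points passed an adjusted p under 0.05: PDGFRB, AXL, INSR, PTK7, COL1A2 and COL1A1 to the right, RYK and STYK1 to the left.

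Ratios of 2 genes within a library do not depend on a factor applied to a whole column, apart from the pseudocount. Quantile normalization is not such a factor, and the ratios were not computed under it. Of 6 pairs listed, 4 had both genes at an average of 1 FPKM or more. The log2 ratio of AXL to TYRO3 was 3.05, 3.34 and 3.33 in shC8, against 2.49, 2.73 and 2.63 in shCTR, a difference of 0.62. For AXL over GAS6 the difference was 0.43, with 3.90 ± 0.207 in shC8 and 3.47 ± 0.157 in shCTR (SD, n = 3 each). For INSR over IGF1R it was 0.39, with 0.59 ± 0.0931 in shC8 and 0.20 ± 0.0382 in shCTR (SD, n = 3 each). For MET over AXL it was -0.35, with -0.27, -0.19 and -0.33 in shC8, against 0.19, -0.01 and 0.08 in shCTR. None of the 4 ratios overlapped between the groups. Each holds AXL or INSR, whose own groups did not overlap, so the 4 are not separate results. How often ratios of other gene pairs do the same was not tested. Each gave p = 0.1 in the exact two-sided permutation test, also after adjustment over the 4 pairs, which is the smallest p that 3 against 3 libraries allow and cannot pass 0.05.

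**Figure D3:**
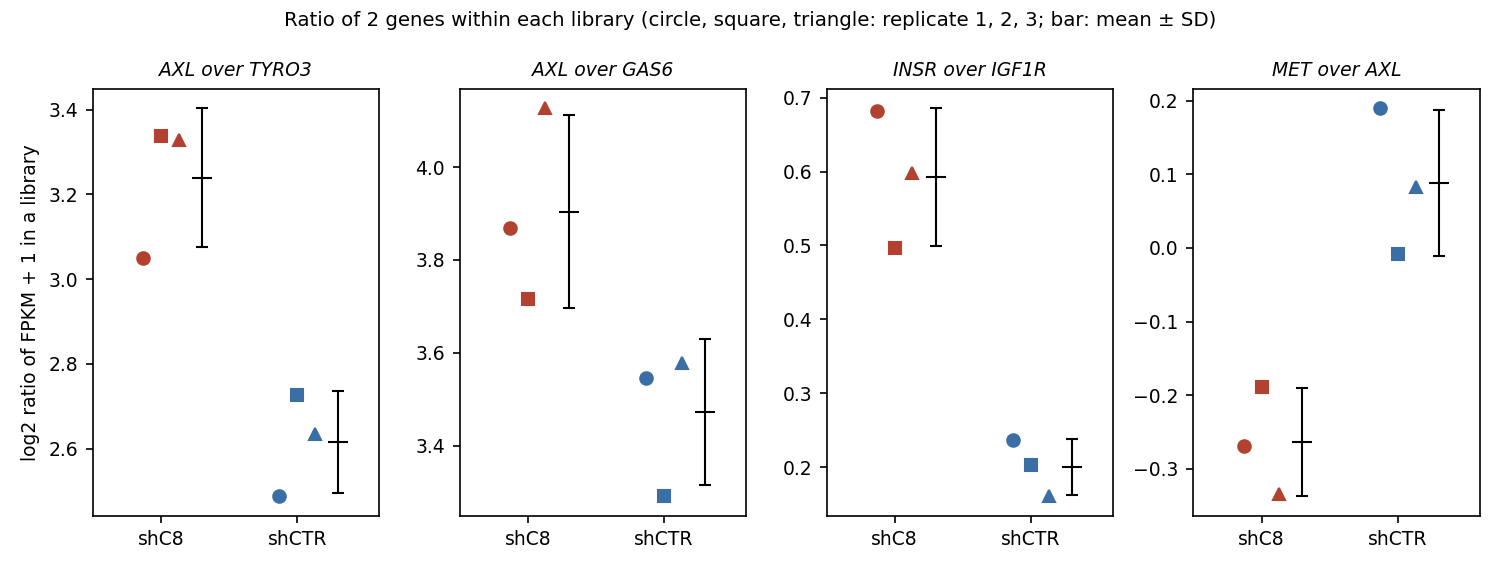
Log2 ratio of FPKM + 1 of 2 genes within each library (vertical axes, which differ between panels and do not start at 0), for the 3 shC8 libraries (left) and the 3 shCTR libraries (right), with the mean and SD. AXL over TYRO3, AXL over GAS6 and INSR over IGF1R are higher in every shC8 library, and MET over AXL is lower in every shC8 library.

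Read by level, the 10 genes kept nearly the same order in both groups. In shC8 it ran AXL, MET, DDR2, TYRO3, GAS6, PDGFRB, INSR, IGF1R, PDGFRA and MERTK, from 112 FPKM for AXL to 0.0727 FPKM for MERTK, and no neighbours in that order overlapped in their libraries. In shCTR MET came before AXL, the only neighbours whose libraries overlapped. Set among all 58 receptor tyrosine kinase genes listed, 9 of these and 49 others, AXL and MET ranked 1 and 2, DDR2 4, and TYRO3 9. Of the 58, 21 averaged at least 1 FPKM. AXL made up 27.6%, 27.1% and 28.98% of the summed FPKM of the 58 genes in shC8, against 20.6%, 22.9% and 22.6% in shCTR. That sum holds AXL itself and also RYK, which was lower in shC8, so the share of AXL is not a separate result. The share of MET was 23.2 ± 0.476% in shC8 and 23.4 ± 0.588% in shCTR (SD, n = 3 each). The summed level itself was 403, 405 and 399 FPKM in shC8, against 362, 367 and 401 FPKM in shCTR, so shCTR 3 lay among the shC8 libraries.

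**Figure D4:**
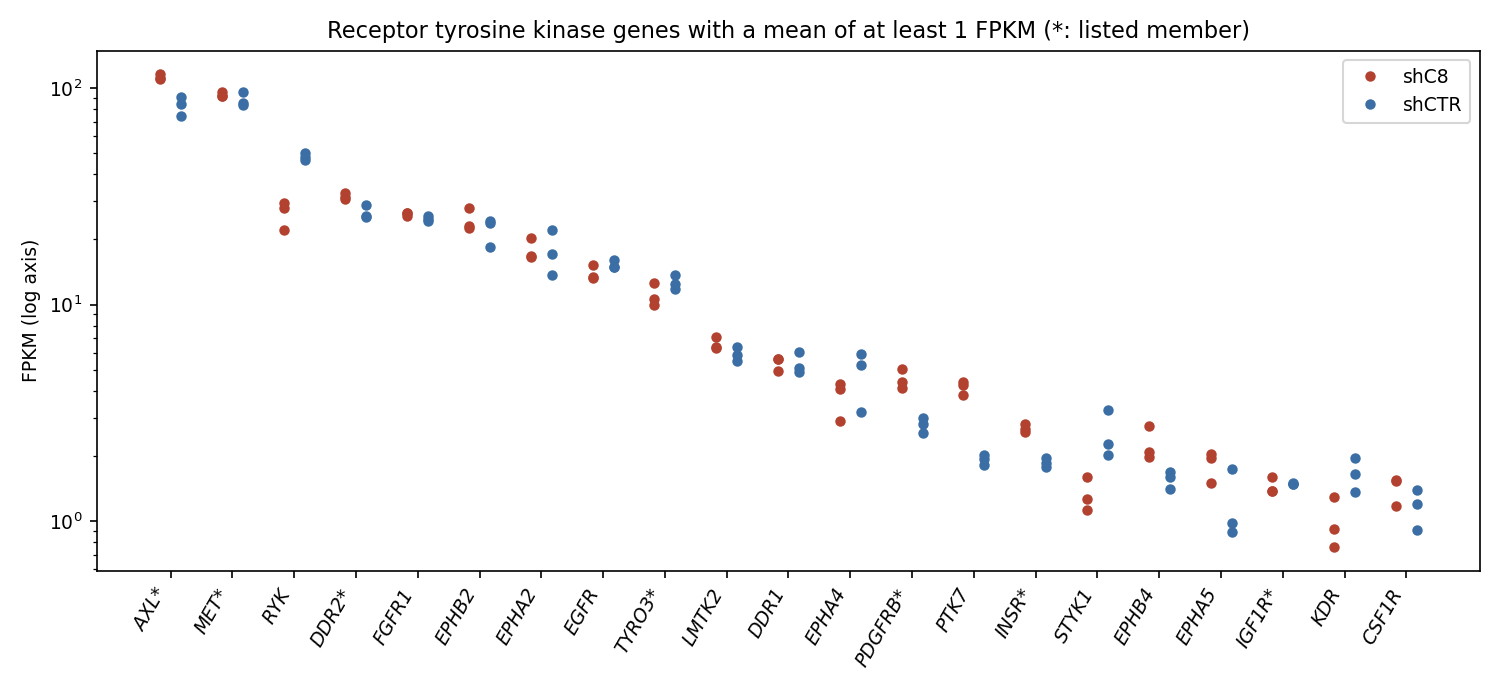
FPKM on a log axis of the 21 receptor tyrosine kinase genes that averaged 1 FPKM or more, in order of mean level, 1 point per library, shC8 left of shCTR for each gene. AXL and MET lie above all other genes, and AXL lies above MET in every shC8 library.

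Among the 49 other receptor kinase genes, 14 were tested, of which 1 rose, 2 fell and 11 did not pass. Of all tested genes, 7.14% were called higher and 4.94% lower. The median log2 change of the 14 genes was 0.05. RYK, a Wnt receptor with an inactive kinase domain, fell to 29.3, 27.9 and 22.1 FPKM in shC8, against 50.2, 47.9 and 46.5 FPKM in shCTR, a difference of -0.85 on the log2 scale (limma, SE 0.106, adjusted p = 0.00475). PTK7, another pseudokinase, known from planar cell polarity, was at 4.23, 4.40 and 3.83 FPKM in shC8, against 1.81, 2.03 and 1.93 FPKM in shCTR, a difference of 0.82 on the log2 scale (limma, SE 0.0841, adjusted p = 0.00266). Both kept their call in each of the 6 fits that left out a library. STYK1 was at 1.33 ± 0.239 FPKM in shC8 and 2.52 ± 0.654 FPKM in shCTR (SD, n = 3 each), or -0.59 on the log2 scale (limma adjusted p = 0.0447), a call that was lost in each of those 6 fits, with no filter on low values and with a term for the number range of the columns. FGFR1 and EPHB2, which with RYK were the 3 most abundant genes of the list, had log2 changes of 0.07 and 0.14 and did not pass. With a term for the number range of the columns EPHB2 was called, at 0.25 (limma adjusted p = 0.0458). With the replicate block 5 of the 14 were called, EPHB4 higher and KDR lower in addition, beside 3086 of all 11598 tested genes.

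Of 40 genes for adaptors and enzymes that act behind these receptors, 39 were tested. Of these, 1 rose, 2 fell and 36 did not pass, beside 7.14% of all tested genes called higher and 4.94% lower. The median log2 change was 0.04. GRB14, an adaptor known to bind and inhibit the insulin receptor, fell to 2.04, 2.74 and 2.54 FPKM in shC8, against 8.07, 7.72 and 6.72 FPKM in shCTR. The fall was 3.08-fold, a difference of -1.31 on the log2 scale (limma, SE 0.106, adjusted p = 0.00132), and was called in each of the 6 fits that left out a library. PIK3R1, a regulatory subunit of PI3K, was at 14.3 ± 1.78 FPKM in shC8 and 9.87 ± 1.58 FPKM in shCTR (SD, n = 3 each), a difference of 0.49 on the log2 scale (limma adjusted p = 0.0464). The call of PIK3R1 was lost in 9 of 14 alternatives, among them 4 of the 6 fits that left out a library, both scalings of the columns and the fit with no filter on low values. With the replicate block 8 of the 39 genes were called, 5 higher and 3 lower, beside 3086 of all 11598 tested genes.

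The table numbers its columns in a lower range (shC8 1, shCTR 1 and shCTR 3) and in an upper range (shC8 2, shC8 3 and shCTR 2), whose meaning was not given in the sources used here. Within the lower and the upper range the log2 change was 0.43 and 0.42 for AXL, 0.48 and 0.52 for PDGFRB, 0.41 and 0.35 for INSR, and 0.21 and 0.29 for DDR2. It was 0.03 and 0.17 for MET and -0.06 and -0.19 for TYRO3. GAS6 differed in sign, with 0.13 and -0.21. Between same-numbered libraries AXL was higher in shC8 in 3 of 3 pairs, by 0.35 to 0.57 on the log2 scale, PDGFRB in 3 of 3, by 0.51 to 0.60, INSR in 3 of 3, by 0.37 in each, and DDR2 in 3 of 3, by 0.09 to 0.34. For these 4 genes the count of pairs follows from groups that do not overlap. MET was higher in shC8 in 2 of 3 pairs, and TYRO3, GAS6 and IGF1R in 1 of 3 each.

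The library profile of AXL was compared with those of all other tested genes as the root-mean-square difference of log2(FPKM + 1), each gene centred on its mean over the 6 libraries. The nearest were IPO13 (0.017), DIP2C (0.0279), HIST2H2BE (0.0303), SSBP2 (0.031) and SCAMP2 (0.0333). IPO13, which encodes a nuclear import receptor, was at 14.3, 14.2 and 14.9 FPKM in shC8, against 9.49, 10.8 and 11.3 FPKM in shCTR. Like AXL, these 5 genes had their lowest value in shCTR 1 and their highest in shC8 3, which follows largely from how they were picked.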

How the data were processed

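Stranded libraries were made from total RNA after removal of ribosomal RNA, per the labels' protocols. The authors deposited 1 FPKM value for each gene symbol in each library. The submitters' processing notes name TopHat, Cufflinks, Cuffdiff and hg38, with no version or role. For annotation, strand use and scaling across libraries, the settings are not given in the sources used here. Column sums ranged between 489055 and 516634 FPKM. FPKM holds no counts, so no count model and no counting interval was used, and absolute depth is unknown. The most common ratio among values under 0.05 FPKM gave the other 5 libraries a depth of 1.08 to 1.2 relative to shCTR 1. All 6 sample columns were used.

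Genes averaging 1 FPKM or more were tested on log2(FPKM + 1) with limma (moderated, mean trend, two-sided) over all 6 libraries, and the threshold was 0.05 after Benjamini-Hochberg adjustment over all 11598 genes tested. A log2 change on this scale understates the change of genes with low values. Single values were tested with an exact permutation test. The members, lists and tests were chosen with earlier results of these data known. Named genes follow a rule: CASP8, all members, every tested ligand gene, the 3 most abundant and up to 6 called other receptor kinases, up to 4 called signalling genes and the 5 genes nearest to AXL. Other genes named were chosen after their values were seen. A gene that the rule would name is not reported here. Both groups number their replicates 1 to 3. Across genes, same-numbered libraries had correlated deviations (0.397, 0.266 and 0.291, each above 0.1). The numbers may therefore pair the samples, on the evidence of the values alone, since no label says so. Apart from the blocked fit, every fit reported here left this pairing out. With the block 3086 genes were called, and without it 1401. The blocked fit was an alternative, beside a pseudocount of 0.1, no filter, quantile normalization, a filter at a mean of 5 FPKM, no mean trend, median-of-ratios scaling and omission of each library. A term for the column number range was chosen after seeing the data. Coordinates are from GENCODE 29 (GRCh38, the assembly called hg38), and promoter windows from RefSeq (all 10 genes matched). The fit was tested on simulated data with independent libraries, so without the correlated deviations seen here. R 4.3.3, limma 3.58.1 and Python 3.11.15 were used.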

Additional observations from a re-analysis of the deposited data

How the results depend on the processing

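CASP8 (-1.69 to -1.48), MET, TYRO3 and IGF1R kept their direction and their side of the threshold under every alternative in which they were tested, and AXL, PDGFRB, INSR and DDR2 kept their direction. With the replicate block, 3086 genes were called in all, 8 signalling genes and 5 other receptor kinases, and among the members it changed the call of DDR2 alone. A minimum mean of 5 FPKM removed PDGFRB, INSR and IGF1R from the test. It left 1 of 5 tested members and 1 of 7 tested other receptor kinases called, beside 1189 of 8553 genes. With no filter 5 of 48 other receptor kinases and 0 of 11 ligand genes were called by limma, beside 979 of 18724 genes. In that fit 5 of 11 ligand genes, and 22.7% of all genes, were at an unadjusted limma p under 0.05. Leaving out 1 library gave between 477 and 1346 genes, 0 and 2 members, 2 and 3 other receptor kinases, 0 and 2 ligand genes and 1 and 4 signalling genes called. The lowest counts of all genes and of members were without shC8 3, where 4 of 8 members, and 22.9% of all tested genes, were at an unadjusted limma p under 0.05. All genes called were 574 without shC8 2, 642 without shCTR 1, 644 without shCTR 2 and 840 without shCTR 3. The members called were 1 without shC8 2 (PDGFRB) and 1 without shCTR 2 (PDGFRB). The difference in INSR over IGF1R was 0.55 with a pseudocount of 0.1. GAS6, near 0, was -0.0523 under quantile normalization, -0.0422 under median-of-ratios scaling, -0.0424 with a term for the column number range, and between -0.11 and 0.10 without 1 library. PDGFA was -0.00089 under quantile normalization, -0.0030 under median-of-ratios scaling and between -0.0090 and 0.10 without 1 library. The cause of these shifts was not tested, apart from the genes that a filter removes. PDGFRA and MERTK are limited by their low levels, and no interval for their counts can be given.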

Other observations

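Of the 49 other receptor kinase genes, 35 averaged under 1 FPKM and were not tested, and FLT3 was listed at 0 throughout. Of the other 34, 4 (11.8%) had groups that did not overlap with shC8 higher, beside 10.7% of all genes under 1 FPKM with a value above 0, so their number was near the background. These 4 genes were picked with their values in view. KIT, the stem cell factor receptor gene, was at 0.535, 1.05 and 1.48 FPKM in shC8, against 0.0351, 0.0447 and 0.187 FPKM in shCTR, a ratio of means of 11.5. EPHA3, an ephrin receptor gene, was at 0.887, 1.77 and 1.35 FPKM in shC8, against 0.243, 0.571 and 0.573 FPKM in shCTR. ROR1, a Wnt5a receptor gene, was at 1.09, 0.759 and 1.07 FPKM in shC8, against 0.525, 0.271 and 0.405 FPKM in shCTR. EPHB3 was at 0.233, 0.249 and 0.372 FPKM in shC8, against 0.0812, 0.0728 and 0.109 FPKM in shCTR. With no filter on low values the limma adjusted p was 0.0498 for KIT, 0.0793 for EPHA3, 0.0473 for ROR1 and 0.0429 for EPHB3. Those under 0.05 lay close to that threshold. The 4 genes were picked because their groups did not overlap, so these p-values are no separate support. In that fit 4 of 48 tested other receptor kinases were called higher, beside 576 of 18724 genes. Levels this low rest on few fragments, whose number the table does not give.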
